A study of Mus musculus with 8 samples.

Results

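The clustered protocadherins are the 59 genes, of 24015 rows in the table, whose symbols begin with *Pcdha*, *Pcdhb* or *Pcdhg*. They were taken by symbol alone, without regard to their values. The alpha cluster had 15 rows, the beta cluster 22 and the gamma cluster 22. The study deleted 1b, a conserved non-coding interval of the sodium channel gene *Scn1a*, with Cas9 in C57BL/6N oocytes, and bred a mouse line that carries the deletion. Libraries of messenger RNA came from 8 mice, 1 library per animal, each taken at postnatal day 7. WT mice had 0 deleted alleles (n = 2, both male), 1b+/- mice had 1 (n = 4, 2 males and 2 females) and 1b-/- mice had 2 (n = 2, both female). The deletion was present in all cells of the animal, was carried by 1 line, and was not driven by a transgene. The sample labels name the tissue hippocampus and the methods of the study name it forebrain.

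Clustered protocadherins are cadherin-related proteins of the neuronal surface. Each binds the same isoform on a facing membrane, and branches of the same neuron, which carry the same set, recognise and avoid each other. A neuron uses only some of the variable isoforms, through promoters that CTCF and cohesin bring to distant enhancers and that are otherwise methylated, whereas the C-type members at the ends of the alpha and gamma clusters are used more evenly among neurons. In alpha and gamma genes a large first exon encodes the outer part and the membrane span of the protein and is spliced to 3 constant exons for the shared inner part. Beta genes have a coding exon of their own and no constant exons. RNA from whole tissue sums over many neurons, so fewer cells that use an isoform and less RNA per cell cannot be told apart.

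Total counts ranged from 2947770 to 20878772 per library, so that a count of 0 allowed up to 0.145 CPM in the deepest library and 1.0 in the shallowest, for counting error only. CPM here are counts relative to a library size adjusted by the trimmed mean of M-values (TMM). *Scn1a* was 45.1 and 40.5 CPM in WT, 15.7 to 26.7 in 1b+/- and 3.18 and 2.0 in 1b-/-. Markers of neurons summed to 4338 to 5243 CPM, with all 5 detected in every library. Markers of neocortex summed to 1676 to 3374, of hippocampus to 182 to 270 and of striatum to 66.3 to 154. Some libraries stood apart in other cell types. Midbrain and hindbrain markers summed to 57.0 CPM in 1b+/- replicate 1 and to at most 16.6 elsewhere, its meningeal markers to 1061 against 202 to 431, and choroid plexus markers ranged from 14.04 to 1006. In 1b+/- replicate 1 *En1*, *En2*, *Gata3* and *Pax7* stood at 10.3, 15.6, 16.8 and 7.99 CPM. *Hoxb2*, *Hoxb3* and *Hoxb4* of the same list were not highest there, at 0.264, 0.792 and 0.198 CPM. In both WT libraries, epithelial markers summed to 46.7 and 155 CPM against 2.47 to 7.19 in the others. Other lists moved with genotype. Oligodendrocyte lineage markers summed to 137 and 149 CPM in WT, 182 to 192 in 1b+/- and 158 and 160 in 1b-/-, without overlap. Endothelial markers (114 and 121 in WT, 126 to 185 in 1b+/-) and microglial markers (36.1 and 38.5 against 39.4 to 44.7) were also higher in every 1b+/- than in every WT library. The sum of hippocampal markers went the other way, at 257 and 270 CPM in WT, 182 to 244 in 1b+/- and 221 and 251 in 1b-/-. Each gene of that list alone overlapped between WT and 1b+/-. *Man1a* was 27.3 and 26.5 CPM in WT and 37.5 in 1b+/- replicate 1, and *Zbtb20* was 76.2 and 85.5 in WT and 89.5 in 1b+/- replicate 2. The part of these differences in the protocadherin values was not tested.

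The 3 clusters lie in tandem on chromosome 18. In the GENCODE annotation of mm9 the alpha cluster runs from 37089939 to 37347311, the beta cluster from 37424652 to 37681073 and the gamma cluster from 37833989 to 38001527. First exons of the annotated alpha transcripts were 2382 to 2562 bases long (median 2394) and those of gamma 2565 to 2961 (median 2595). The 3 exons shared by alpha transcripts came to 2860 bases, and those shared by gamma transcripts to 2119. A read from the shared exons cannot be assigned to an isoform, and what the authors did with such reads is not given in the sources used here. *Pcdha4* had 0 counts in 7 libraries and 3 in 1b+/- replicate 3, and *Pcdha4-g*, an entry whose span starts at *Pcdha4* and reaches into the gamma cluster, had 0 in all 8. Reads of the shared alpha exons were therefore not added to every alpha row. In RefSeq both entries cover the *Pcdha4* exon, so their counts were not read as a level.

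Similarity between first exons also bears on the counts, since reads were 50 bases long. Windows of 50 bases that occurred more than once in the clusters made up 0% to 19.2% of an alpha first exon (median 13.4%, 9 first exons annotated), 0% to 11.9% of a gamma first exon (median 0%, 9 annotated) and 0% to 11.99% of the exon length of a beta gene (median 3.91%, all 22 genes). Reads from such windows match several members. First exons of most gamma genes were not examined.

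The clustered protocadherins together took 810.3 to 966.6 CPM, or 0.0823% to 0.0963% of the counts of a library. Gamma genes held 55.1% ± 1.62 (SD, n = 8) of these reads, beta genes 33.5% ± 1.73 and alpha genes 11.4% ± 0.778. The order gamma, beta, alpha held in 8 of 8 libraries, and the ranges of the shares (52.4% to 56.7%, 31.4% to 36.7% and 10.2% to 12.3%) did not overlap. The gamma sum was 4.34 to 5.58 times the alpha sum and 1.43 to 1.79 times the beta sum in the same library.

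The clusters were also compared per member and kb, as if reads were counted on first exons only. The median of the 9 annotated first exons stood for every member of alpha (2394 bases) and of gamma (2595). On that basis gamma genes stayed ahead of both other clusters in every library, whereas beta and alpha lay close together. The 13 alpha genes without *Pcdha4* and *Pcdha4-g* averaged 3.34 ± 0.349 CPM per kb per member, beta genes 3.81 ± 0.328 (total exon length) and gamma genes 8.79 ± 0.517. Per member and kb, gamma was 2.37 to 3.04 times alpha and 2.0 to 2.51 times beta. Beta was 0.989 to 1.32 times alpha and above it in 7 of 8 libraries, the exception being 1b+/- replicate 1. With *Pcdha4* counted as a member at its listed reads, the alpha mean was 3.10 ± 0.325 and beta was 1.07 to 1.42 times alpha. Without the C-type members, the 19 variable gamma genes stood at 7.01 ± 0.496 CPM per kb and the 11 variable alpha genes at 2.99 ± 0.385. Gamma was then 1.63 to 1.99 times beta. A count that also took in part of the constant exons would lower the alpha and gamma values per kb and not the beta values. The ratios of gamma and alpha to beta therefore depend on a counting rule that is not known.

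How evenly reads were divided within a cluster was given by the effective number of members, the exponential of the Shannon entropy of the read shares. It was 9.64 ± 0.499 for alpha (8.55 to 10.2 over libraries), 15.5 ± 0.678 for beta and 15.4 ± 0.811 for gamma. Set against the 13, 22 and 22 genes counted, this was 74.2% ± 3.83, 70.7% ± 3.08 and 69.8% ± 3.69, with overlapping ranges. Without the C-type genes the effective number was 8.83 ± 0.308 for alpha and 17.2 ± 0.330 for gamma. Of the 59 genes, 33 averaged at least 10 CPM, 20 of them gamma, 10 beta and 3 alpha. The spread between libraries (SD as a share of the mean) had a median of 23.7% over the 13 tested alpha genes, 15.2% over 21 beta and 15.1% over 22 gamma genes.

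Alpha and gamma symbols could not be tied to their first exons in the annotation, so their genes are given in CPM and not per length, and an order among genes of 1 cluster is an order of reads. *Pcdhac2*, the C-type gene that serotonin axons need to space their branches, led the alpha cluster in all 8 libraries. It stood at 23.7 and 25.1 CPM in WT, at 24.4, 18.9, 22.4 and 26.0 in 1b+/- replicates 1 to 4, and at 19.8 and 25.5 in 1b-/-. These ranges overlapped, and the gene held 19.4% to 30.4% of alpha reads. Markers of serotonin neurons summed to only 3.00 to 5.76 CPM. *Pcdha5* (15.6 ± 2.32 CPM, n = 8) and *Pcdha11* (15.2 ± 2.64) took ranks 2 and 3 in every library and were not separated from each other by their spread.

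Below these, *Pcdha9*, *Pcdha12*, *Pcdha3*, *Pcdha6* and *Pcdha2* lay between 6.86 and 8.05 CPM on average and exchanged ranks between libraries. *Pcdha7* averaged 4.77 and *Pcdha10* 2.91 CPM. The other C-type gene, *Pcdhac1*, was low, at 2.02 ± 0.697 CPM and 2 to 44 counts per library. *Pcdhac2* was 8.41 to 39.0 times as abundant in counts as *Pcdhac1*, the highest ratio falling in 1b+/- replicate 4 with 2 *Pcdhac1* counts. *Pcdha1* (1.77 ± 0.900) and *Pcdha8* (1.16 ± 0.498 CPM) were the lowest alpha genes tested, and their spread was 50.9% and 43.0% of the mean.

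**Figure D1:**
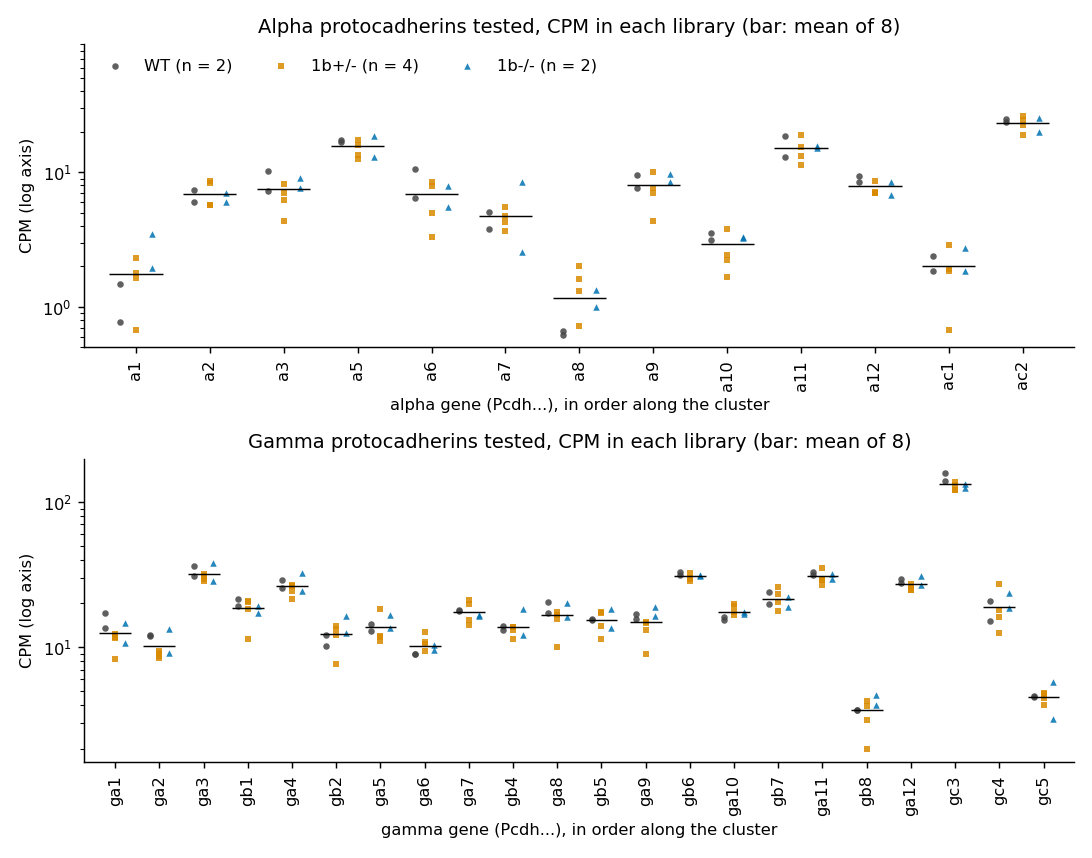
CPM (log axis) of the 13 tested alpha genes (upper panel) and 22 gamma genes (lower panel) in their order along each cluster, with a point per library by genotype and a bar at the mean of 8. *Pcdhac2* is the highest alpha gene and *Pcdhgc3* the highest gamma gene in every library, and the genotypes overlap for most members.

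Beta genes could be compared per length, since none shares exons with another gene. *Pcdhb20* had the highest level at 11.2 ± 2.20 CPM per kb of exon (8.37 to 14.7 over 8 libraries), followed by *Pcdhb17* at 8.73 ± 0.747 (7.66 to 9.96). These exchanged ranks 1 and 2 between libraries. *Pcdhb16* (6.62 ± 1.14), *Pcdhb19* (5.92 ± 0.762) and *Pcdhb18* (5.36 ± 0.723) came next and overlapped in range.

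The 5 genes with the highest mean are direct neighbours, at positions 16 to 20 of 22 along the cluster. In 5 of 8 libraries they were exactly the top 5 per kb, in WT replicate 1 and 1b+/- replicate 4 the top 5 held 4 of them, and in 1b-/- replicate 2 it held 3. They took 53.3% to 61.8% of all beta reads. *Pcdhb22* (4.91 ± 0.572 CPM per kb) and *Pcdhb7* (4.84 ± 0.619) were close behind and entered the top 5 in those libraries, so that no gap separates the block from them. *Pcdhb21*, between *Pcdhb20* and *Pcdhb22*, stood at 1.95 ± 0.365.

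**Figure D2:**
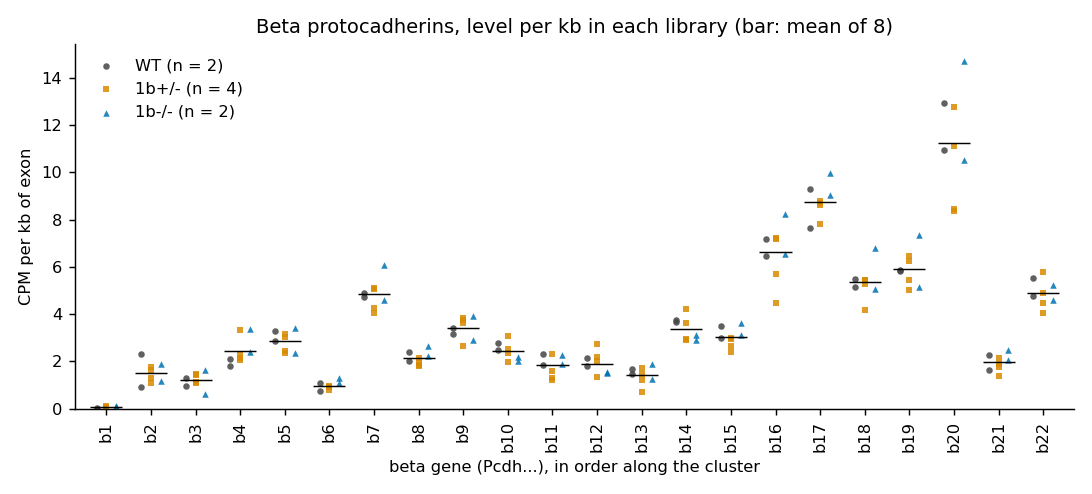
Level of each beta gene in CPM per kb of exon (linear axis from 0), in order along the cluster, with a point per library by genotype and a bar at the mean of 8. *Pcdhb16* to *Pcdhb20* form a raised block, with *Pcdhb20* at 8.37 to 14.7, and *Pcdhb1* lies near 0.

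At the other end of the cluster, *Pcdhb1* had 0 to 4 counts per library, a mean of 0.0556 CPM per kb, and was not tested. None of its exon windows occurred elsewhere in the clusters. *Pcdhb6* (0.975 ± 0.178 CPM per kb) and *Pcdhb3* (1.20 ± 0.322) were the lowest beta genes tested. The highest shares of repeated windows, 11.99% and 11.7%, were in *Pcdhb12* and *Pcdhb11*, at 1.91 and 1.85 CPM per kb. With only the windows found once as length, these became 2.20 and 2.12, and the order of the top 5 was as before.

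*Pcdhgc3*, a C-type gene whose protein binds Axin1 and promotes dendrite branching, had the highest count of all 59 genes in every library. It was 140.0 and 158.8 CPM in WT, 120.0, 130.7, 121.3 and 137.2 in 1b+/- and 123.9 and 132.7 in 1b-/-. Both WT libraries lay above the 6 others, as they did with RLE scaling. With library totals alone the 1b+/- range of 119.9 to 139.4 overlapped that of WT, 134.6 to 153.6, and both 1b-/- values stayed below WT. The gene held 24.3% to 30.6% of gamma reads. *Pcdhga3* (31.9 ± 3.44 CPM), *Pcdhgb6* (30.9 ± 1.42) and *Pcdhga11* (30.7 ± 2.68) followed, with overlapping ranges, and *Pcdhgb6* varied least of all members, by 4.60% of its mean.

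The 12 A-type genes took 45.7% ± 1.11 (n = 8) of gamma reads, the 7 B-type genes 23.1% ± 1.35 and the 3 C-type genes 31.2% ± 2.19. *Pcdhgc4*, known for keeping neurons alive during development, averaged 18.97 ± 4.75 CPM. It was 15.05 and 20.7 in WT, 27.2, 12.5, 18.1 and 16.03 in 1b+/- and 18.6 and 23.5 in 1b-/-. Its highest value fell in 1b+/- replicate 1, the library with the highest sums of midbrain and hindbrain markers and of meningeal markers. *Pcdhgc5* averaged 4.52 ± 0.733 CPM, so that *Pcdhgc3* had 23.0 to 38.9 times its counts. *Pcdhgb8*, which RefSeq lists as a transcribed pseudogene, averaged 3.68 ± 0.809 and was the lowest gamma entry in 7 of 8 libraries.

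**Figure D3:**
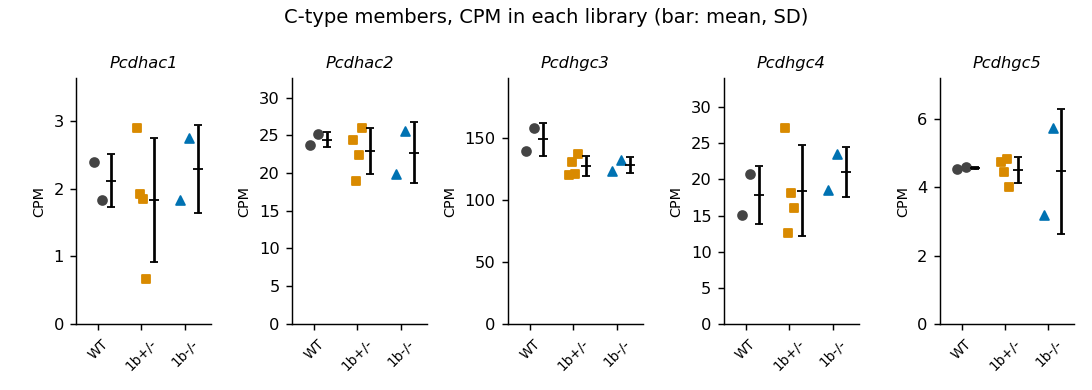
CPM of the 5 C-type members in each library (points) with the mean and SD per genotype (bars), each panel with a linear axis from 0. *Pcdhgc3* is lower in all 6 1b+/- and 1b-/- libraries than in the 2 WT libraries (with library totals 1b+/- overlaps WT), whereas the genotypes overlap for the other 4 genes.

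Whether loss of 1b changed these genes was asked in each pair of genotypes with the edgeR quasi-likelihood test over all 15588 genes at or above 1 CPM in some library. Of the clustered protocadherins, 56 were tested (13 alpha, 21 beta and 22 gamma). *Pcdha4*, *Pcdha4-g* and *Pcdhb1* were not. None of the 56 passed an adjusted p of 0.05 in any comparison, and 0 had an unadjusted p under 0.05 in any comparison between genotypes. The edgeR likelihood ratio test and DESeq2 also called 0. WT and 1b-/- differ in sex as well as in genotype, and sex could be separated only through the 1b+/- mice of both sexes.

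With 1 deleted allele against none, 0.0834% of all genes passed the adjusted threshold and 4.34% had an unadjusted p under 0.05. Of the 56 members, 16 had a fitted fold above 0 and 40 below (28.6% above, against 52.1% of all genes), with a median log2 fold change of -0.09 against 0.01 for all genes. By cluster the medians were -0.10 for alpha, -0.08 for beta and -0.08 for gamma. In every 1b+/- library the sums of oligodendrocyte, endothelial and microglial markers were higher than in WT. The hippocampal sum was lower, although each gene of that list overlapped WT. The part of these lists was not tested. Without 1b+/- replicate 4, the shallowest library, 25 of 56 were above 0 and the median was -0.05. Among males alone, 21 were above 0, the median was -0.11 and no member was called. For 51 of 56 members the 95% interval lay within a log2 change of 1 in either direction.

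The smallest p for a lower value was that of *Pcdhga2*, at 11.9 and 12.1 CPM in WT and 9.37, 8.48, 9.06 and 8.68 in 1b+/-. All 4 were below both WT libraries (log2 fold change -0.43, SE 0.20, edgeR unadjusted p = 0.0605, adjusted p = 1.0). In 1b-/- it was 9.18 and 13.3. The smallest p for a higher value was that of *Pcdha8*, at 0.66 and 0.61 CPM in WT and 0.73, 1.62, 1.31 and 2.0 in 1b+/- (log2 fold change 1.03, SE 0.60, edgeR unadjusted p = 0.115), which rested on 4 to 27 counts per library. *Pcdhgc3* had a log2 fold change of -0.23 (SE 0.13, 95% interval -0.51 to 0.05, edgeR unadjusted p = 0.0939).

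Groups without overlap were counted beside the share of all genes that showed the same. *Pcdha8*, *Pcdhga10* and *Pcdhga6* were higher in every 1b+/- than in every WT library, 5.36% of members against 6.40% of all genes. *Pcdhb15*, *Pcdhga1*, *Pcdhga12*, *Pcdhga2*, *Pcdhga9* and *Pcdhgc3* were lower in every 1b+/- library, 10.7% of members against 5.93%. Of these 6, 5 are gamma genes, which make up 22 of the 56 members tested. With library totals in place of TMM, 3 of the 6 (*Pcdhga1*, *Pcdhga2* and *Pcdhga9*) remained without overlap, and with RLE scaling all 6. *Pcdhb4* joined the higher group with library totals.

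With 2 deleted alleles against none, 0.00642% of all genes passed the adjusted threshold and 1.64% had an unadjusted p under 0.05. Folds of the 56 members were above 0 for 30 and below for 26, with a median of 0.02 and a range from -0.38 to 1.15. The median was -0.05 without 1b-/- replicate 2. With sex as a covariate 27 were above 0, the median was -0.03 and no member was called. Medians by cluster were -0.04 for alpha, 0.08 for beta and 0.00 for gamma, and 45 of 56 intervals lay within a log2 change of 1.

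*Pcdha1* had the smallest p in this comparison, at 1.49 and 0.77 CPM in WT and 1.96 and 3.51 in 1b-/- (log2 fold change 1.15, SE 0.60, edgeR unadjusted p = 0.0789), with 5 to 18 counts behind each value. In 1b+/- it ranged from 0.67 to 2.32 CPM and overlapped both. *Pcdhgc3* had the smallest p for a lower value (log2 fold change -0.22, SE 0.15, edgeR unadjusted p = 0.167, 95% interval -0.55 to 0.11). The WT libraries are shared by both of its comparisons, so these are not independent. For *Pcdhac2* the log2 fold change was -0.12 (95% interval -0.59 to 0.36) and for *Pcdhgc4* 0.24 (-0.49 to 0.96).

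In this comparison 8 members were higher without overlap (*Pcdha1*, *Pcdha8*, *Pcdhb4*, *Pcdhb6*, *Pcdhga10*, *Pcdhga6*, *Pcdhgb2* and *Pcdhgb8*), 14.3% against 11.6% of all genes. Another 6 were lower (*Pcdhb10*, *Pcdhb12*, *Pcdhb14*, *Pcdhga7*, *Pcdhgb1* and *Pcdhgc3*), 10.7% against 12% of all genes. These shares are near those of all genes. With library totals *Pcdhb17* joined the higher group and *Pcdhgb1* overlapped, and with RLE scaling *Pcdhgb6* joined the lower group.

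With 2 deleted alleles against 1, 0.00642% of all genes passed the adjusted threshold and 1.23% had an unadjusted p under 0.05. Folds were above 0 for 42 of 56 members and below for 14 (75.0% above, against 49.0% of all genes), with a median of 0.15, and by cluster of 0.10 for alpha, 0.19 for beta and 0.14 for gamma. Without 1b-/- replicate 2 the count was 31 and the median 0.04. Among females alone, 37 were above 0, the median was 0.11 and no member was called. The 1b+/- libraries are shared with the first comparison, in which most folds were below 0.

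*Pcdhga9* had the smallest p, at 13.2, 14.8, 14.9 and 9.01 CPM in 1b+/- and 16.5 and 18.8 in 1b-/- (log2 fold change 0.40, SE 0.21, edgeR unadjusted p = 0.0849). In WT it was 15.5 and 17.01. *Pcdhb12* had the smallest p for a lower value, at 6.14, 6.67, 8.24 and 4.01 in 1b+/- and 4.53 and 4.76 in 1b-/- (log2 fold change -0.49, SE 0.30, edgeR unadjusted p = 0.127), and these groups overlapped. *Pcdhb15*, *Pcdhb17*, *Pcdhb6*, *Pcdhb8* and *Pcdhga9* were higher in both 1b-/- libraries than in every 1b+/- library, 8.93% of members against 3.41% of all genes. None was lower without overlap, against 3.98% of all genes. Of these 5, 4 are beta genes, which make up 21 of the 56 members tested. With library totals *Pcdhb15* and *Pcdhb17* overlapped.

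**Figure D4:**
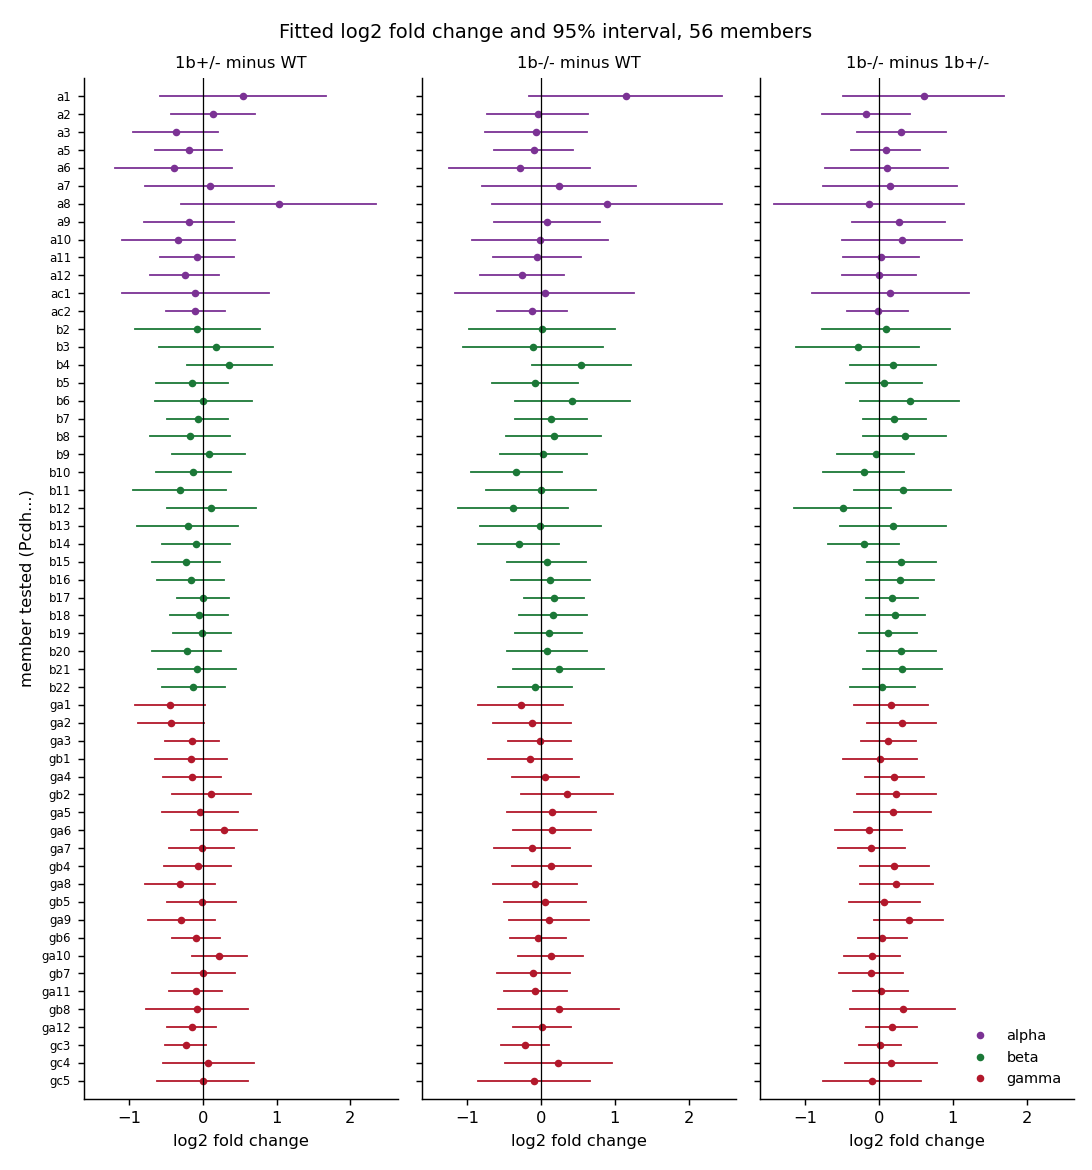
Fitted log2 fold change (points) and 95% interval (lines) of the 56 tested members in their order along the alpha, beta and gamma clusters, for 1b+/- minus WT, 1b-/- minus WT and 1b-/- minus 1b+/-. All intervals between genotypes include 0, and the widest belong to the low alpha genes *Pcdha1*, *Pcdha8* and *Pcdhac1*.

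Summed over each cluster the genotypes lay close together. The alpha sum was 110 ± 0.914 CPM in WT (n = 2), 99.0 ± 13.9 in 1b+/- (n = 4) and 107 ± 6.68 in 1b-/- (n = 2). The beta sum was 310 ± 3.27, 292 ± 27.2 and 327 ± 28.5 in the same order. For both clusters the ranges of the genotypes overlapped.

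The gamma sum was 518.2 and 543.1 CPM in WT, 483.8, 496.2, 498.8 and 448.4 in 1b+/- and 495.8 and 531.5 in 1b-/-. Every 1b+/- library lay below both WT libraries, with means of 482 ± 23.2 and 531 ± 17.6. Oligodendrocyte lineage markers (182 to 192 CPM against 137 and 149), endothelial and microglial markers were higher in the same 4 libraries than in WT. The hippocampal sum was lower there (182 to 244 CPM against 257 and 270), although each gene of that list overlapped WT. The part of these lists was not tested. The separation held with RLE scaling (446.2 to 503.0 against 522.5 to 539.0). With library totals alone the 1b+/- range became 455.6 to 521.3 and the WT range 498.4 to 525.6, which overlap. Under that scaling the beta sum was higher in 1b-/- (311.4 and 337.8) than in WT (296.1 and 302.4), which was not so with the scaled values.

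**Figure D5:**
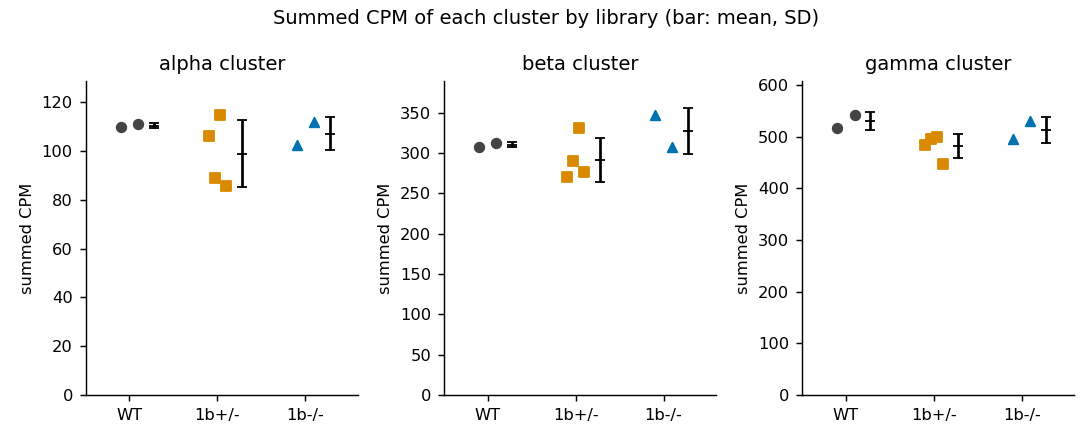
Summed CPM of all rows of the alpha, beta and gamma clusters in each library (points), with the mean and SD of each genotype (bars) and linear axes from 0. The genotypes overlap for alpha and beta, and the 4 1b+/- gamma sums of 448.4 to 498.8 lie below the WT sums of 518.2 and 543.1, a separation lost with library totals.

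The shares within a library, which no scaling affects, differed little by genotype. Alpha genes held 11.6% ± 0.170 of the clustered protocadherin reads in WT, 11.3% ± 1.10 in 1b+/- and 11.3% ± 0.664 in 1b-/-. Beta genes held 32.6% ± 0.403, 33.4% ± 1.54 and 34.5% ± 3.13 in the same order, with 36.7% in 1b-/- replicate 1. Gamma genes held 55.8% ± 0.573, 55.3% ± 1.74 and 54.2% ± 2.47. For each cluster the ranges of the genotypes overlapped. *Pcdhgc3* held 27.0% and 29.2% of gamma reads in WT, 24.8%, 26.3%, 24.3% and 30.6% in 1b+/- and 25.0% and 25.0% in 1b-/-. As a share it was thus highest in a 1b+/- library, replicate 4, and lower in both 1b-/- than in both WT libraries.

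Sex could be compared only among 1b+/- mice. In females against males, 0 members passed the adjusted threshold, which 0.0321% of all genes did. *Pcdhb16* (log2 fold change 0.50, SE 0.21, edgeR unadjusted p = 0.0345) and *Pcdhga7* (-0.48, SE 0.21, edgeR unadjusted p = 0.0419) had an unadjusted p under 0.05, 3.57% of members against 2.66% of all genes. Their adjusted p was 1.0. *Pcdhb16* was 37.9 and 37.7 CPM in females and 23.5 and 30.1 in males. The median fold of the members was 0.05, but -0.20 without replicate 3 and 0.13 without replicate 4, so that its sign rested on single libraries.

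Genes that act with the clustered protocadherins were read from the same fit, as 5 lists. None passed the adjusted threshold in any comparison between genotypes, with the edgeR likelihood ratio test and DESeq2 also at 0. At an unadjusted p under 0.05, 1 gene was found, in 1b+/- against WT. This was *Fat2*, a giant cadherin of cerebellar granule cells (log2 fold change 1.90, SE 0.65, edgeR unadjusted p = 0.0134). It was 1.32 and 1.84 CPM in WT, 12.3, 3.94, 3.39 and 2.0 in 1b+/- and 2.08 and 3.00 in 1b-/-. The highest value was again in 1b+/- replicate 1, where midbrain and hindbrain markers summed to 57.0 CPM. *Hoxb2*, *Hoxb3* and *Hoxb4* of that list were not highest there, and the part of the list was not tested. Cerebellar granule markers summed to 244 CPM in that library against 308 and 304 in WT and 412 in 1b+/- replicate 2. Most of that sum was *Zic1* (160 CPM there, 237 and 227 in WT). The granule marker *Cbln1* was highest in 1b+/- replicate 1, at 82.2 CPM against 61.9 to 75.1 in the other libraries. *Cbln3* of the same list was not, being higher in 1b+/- replicate 2 and in WT replicate 2. *Gabra6*, also of that list, stayed below 1 CPM in every library and was not tested. How these markers relate to *Fat2* was not tested.

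CTCF and cohesin make the loops through which these promoters are chosen. Of 11 genes tested, 10 had folds below 0 in 1b+/- and 10 in 1b-/-, each against WT, with medians of -0.08 and -0.07. Of all genes, 52.1% and 48.9% had folds above 0 in these comparisons, which share the 2 WT libraries and so are not separate observations. Between 1b-/- and 1b+/-, 4 of the 11 were above 0 and 7 below. *Ctcf* itself was 219 ± 14.9 CPM in WT, 209 ± 23.0 in 1b+/- and 218 ± 4.23 in 1b-/-. The smallest p belonged to the cohesin loader *Mau2* (0.19, SE 0.17) in 1b+/-, to the cohesin regulator *Pds5b* (-0.19, SE 0.18) for 1b-/- against WT, and to the cohesin subunit *Rad21* (-0.10, SE 0.15) between 1b-/- and 1b+/-, all as log2 fold changes.

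Among 10 silencing factors, 5 had folds above 0 in 1b+/- against WT, 4 for 1b-/- relative to WT and 8 between 1b-/- and 1b+/-. The smallest p in both comparisons with WT was that of *Dnmt3b*, the DNA methyltransferase that marks these promoters early in development. It was 2.86 ± 1.45 CPM in WT, 4.16 ± 0.838 in 1b+/- and 4.75 ± 1.41 in 1b-/-, ranges that overlapped. In 1b-/- against 1b+/- it was *Trim28*, a corepressor of transcription (log2 fold change -0.18, SE 0.16).

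The proteins that carry the signal inside the cell include the kinases FAK and Pyk2, which bind the constant part, the WAVE complex and the proteases that cut protocadherins. All 12 had folds below 0 in 1b+/- against WT (median -0.16) and 11 of 12 in 1b-/- against WT (median -0.12), where the same WT libraries serve both and 52.1% and 48.9% of all genes were above 0. Between 1b-/- and 1b+/-, 10 of the 12 were above 0 (median 0.06), against 49% of all genes. None of these 12 passed the test. *Wasf1*, a WAVE subunit, was 51.6 and 58.2 CPM in WT and 36.7, 46.5, 49.8 and 35.4 in 1b+/- (log2 fold change -0.37, SE 0.17, edgeR unadjusted p = 0.0538). *Adam10*, the protease that sheds the outer part, stood at -0.25 (SE 0.20) on the log2 scale in 1b-/- relative to WT. *Ptk2b*, which encodes Pyk2, stood at 0.33 (SE 0.23) relative to 1b+/-.

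Non-clustered protocadherins, which lie elsewhere in the genome and have no such promoter choice, had 3 of 12 folds above 0 in 1b+/- against WT (median -0.06), 6 of 12 for 1b-/- against WT (median 0.00) and 9 of 12 between 1b-/- and 1b+/- (median 0.09). The smallest p belonged to *Pcdh20* (-0.38, SE 0.20), *Pcdh8* (-0.24, SE 0.20) and *Pcdh10* (0.22, SE 0.14) in turn, as log2 fold changes. Of the 10 other large cadherins and self-avoidance genes, 6 had folds above 0 in 1b+/- against WT, 6 for 1b-/- against WT, and 3 between 1b-/- and 1b+/-. *Celsr1* had the smallest p in 1b-/- against WT (-0.28, SE 0.30) and *Fat2* in the others.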

How the data were processed

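RNA of 8 mice was made into stranded mRNA libraries and read from 1 end over 50 bases. The authors aligned reads to mm9 with STAR 2.7.2 and counted them per gene symbol with featureCounts, and the deposited values are raw counts, whole and not normalized. How strand and multiply matching reads were treated, and the annotation release, are not given in the sources used here. Total counts were 2947770 to 20878772, which limits low genes most.

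Genotype, sex and age came from the labels. Replicate numbers only follow sample order. The 15588 genes at or above 1 CPM in some library were fitted with edgeR 4.0.16 in R 4.3.3 (TMM scaling, quasi-likelihood test, genotype as the factor, all 8 libraries), with Benjamini-Hochberg adjustment over all of them at 0.05. Members were taken by symbol alone. That rule and the lists of other genes were set with earlier results of these data known. Named were *Scn1a*, the 3 highest members of each cluster, the C-type genes, the members with the smallest p in each direction, members with no count above 3, and the gene with the smallest p in each list. Members without overlap between genotypes, the lowest members and the 2 sex p-values were named after their values were seen. Cluster sums and shares used every row and no test. Lengths and 50-base windows came from the GENCODE annotation and sequence of mm9. Alpha and gamma isoforms are merged there, so lengths of single genes could be given for beta only. RefSeq was used for the order of genes along all 3 clusters. Alternatives were other filters and scalings, the likelihood ratio test, DESeq2 1.42.0, sex as a covariate, the compared genotypes alone, each sex alone, and omission of each library. Windows found once as length, alpha levels without *Pcdha4* and overlap under other scalings were added after seeing the data.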

Additional observations from a re-analysis of the deposited data

Results flagged for a closer look

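In 1b+/- mice, the only genotype with 4 libraries, 35 measures of the clustered protocadherins and of *Scn1a* were examined for a library far from the others (Dixon's criterion at 95%). Chance would give 1.75 if the measures were independent, but many draw on the same counts. There were 2 such cases. Both fell in replicate 4, the shallowest library. Its effective number of alpha members was 8.55 against 9.82 to 9.93 in the other 3, on 257 alpha counts, of which *Pcdhac2* held 30.4%. Its *Pcdhb18* level was 21.0 CPM, on 63 counts, against 26.5 to 27.5.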

How the results depend on the processing

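No clustered protocadherin passed an adjusted p of 0.05 under any of the 18 alternative settings, in which the lowest adjusted p was 0.897 in 1b+/- against WT, 1.0 for 1b-/- against WT, 0.998 in 1b-/- against 1b+/- and 0.565 between the sexes. Of the values described without a test, 3 moved by more than the spread between libraries, all of them WT sums without the TMM factor, at 107 CPM for alpha (110 with it), 299 for beta (310) and 512 for gamma (531). Members with a fold above 0 numbered 13 to 25 of 56 in 1b+/- against WT, 26 to 33 in 1b-/- against WT, 31 to 43 in 1b-/- against 1b+/- and 14 to 42 between the sexes, the last at 14 without replicate 3 of 1b+/- and 42 without replicate 4, and the first at 25 without replicate 4. The cause was not tested. Depth limits the low alpha genes most. Where an omission left 1 library in a group, that library was taken to vary like the others. No paired analysis was possible because replicate numbers follow the order of the samples and pair no animals.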
